A study of Mus musculus with 2 samples.

Results

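The 9 genes described here encode 4 glucose transporters (Slc2a1, Slc2a3, Slc2a6 and Slc2a8), the arrestin-like protein TXNIP and its relatives ARRDC3 and ARRDC4, and the transcription factors MLX and MondoA (the gene Mlxip). They were taken by name from the 23462 genes that a RefSeq table names on the array, and 15 probes represent them. RNA came from mouse CD8 T cells, isolated as naive cells from the spleen of C57BL/6 animals and activated for 2 days on wells coated with anti-TCRβ (3 µg/ml) and anti-CD28 (1 µg/ml), which engage the antigen receptor and its costimulator. Both cultures received interleukin-2 (10 ng/ml); during those 2 days 1 of them also contained prednisolone, a synthetic glucocorticoid, at 1 µM, and the other was the vehicle control. Both then spent 3 days in a new plate with interleukin-2, and RNA was measured on day 5. The series asks about glucose metabolism after glucocorticoid exposure. There was 1 array per treatment, so nothing below was tested between cultures.

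Glucose enters T cells through facilitative transporters of the SLC2A family, and activation of T cells is known to raise their number at the cell surface. TXNIP binds thioredoxin and promotes removal of glucose transporters from the plasma membrane, and for this it is often called a brake on glucose uptake; ARRDC3 and ARRDC4 belong to the same family of α-arrestins. MondoA, with its partner MLX, responds to glucose 6-phosphate and binds paired E-box-like sequences, the carbohydrate response elements, in the promoters of Txnip and Arrdc4. A higher level of glucose 6-phosphate therefore normally raises the transcripts of these brakes.

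The promoters are shown for the 2 best-known MondoA targets, which differed in opposite directions, and for Slc2a1 and Slc2a6, which were both lower. Each run is the 250 bases before the annotated start, in RefSeq's build GRCm38.p6, 5′ to 3′ on the strand of the gene. Capitals mark matches on either strand to an E-box, a paired E-box-like repeat (its spacer in lower case), a FOXO motif and either of 2 hypoxia response cores, whose letters are spelled out after the sequences.
Txnip, chr3:96557707-96557956, + strand: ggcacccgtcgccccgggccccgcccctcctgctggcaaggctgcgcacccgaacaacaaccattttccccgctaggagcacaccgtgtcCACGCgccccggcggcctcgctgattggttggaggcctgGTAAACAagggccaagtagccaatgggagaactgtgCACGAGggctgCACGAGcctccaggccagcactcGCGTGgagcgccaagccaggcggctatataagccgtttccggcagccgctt
Arrdc4, chr7:68749239-68749488, - strand: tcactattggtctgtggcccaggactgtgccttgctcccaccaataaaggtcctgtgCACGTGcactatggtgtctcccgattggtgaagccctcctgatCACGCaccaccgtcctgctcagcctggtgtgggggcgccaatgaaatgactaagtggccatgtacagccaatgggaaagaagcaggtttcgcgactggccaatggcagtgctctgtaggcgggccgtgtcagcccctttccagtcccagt
Slc2a1, chr4:119108495-119108744, + strand: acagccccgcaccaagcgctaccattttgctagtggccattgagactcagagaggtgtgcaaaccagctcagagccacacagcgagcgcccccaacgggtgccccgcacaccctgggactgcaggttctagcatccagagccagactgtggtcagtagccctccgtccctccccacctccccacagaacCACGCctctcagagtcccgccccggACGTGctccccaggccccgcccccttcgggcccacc
Slc2a6, chr2:27027999-27028248, - strand: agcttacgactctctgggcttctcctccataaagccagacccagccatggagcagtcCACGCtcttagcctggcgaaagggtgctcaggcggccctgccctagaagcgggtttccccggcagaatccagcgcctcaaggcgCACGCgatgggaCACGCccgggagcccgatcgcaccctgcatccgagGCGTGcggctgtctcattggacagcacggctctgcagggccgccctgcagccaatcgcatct

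Of the 9 genes, 8 had a promoter window of 250 bases before to 50 bases after a start, 10 windows in all. The paired repeat, searched as the half-site CACGNG, 5 bases of any kind and the half-site again, was found in Txnip alone among them, where its first base is at −85. It occurred in 16 of all 32851 RefSeq windows of that length (0.0487%). Other spellings, spacings and relative orientations of the half-sites were not searched. The search therefore does not show that Arrdc4 or the other genes lack a carbohydrate response element. Txnip was also the 1 gene of the 8 with the FOXO motif GTAAACA, at −121, which 3.65% of all windows held. Arrdc4 had a single E-box, CACGTG, at −193 and Mlx had one at −40, and 7.15% of all windows held one. The hypoxia core GCGTG was in windows of 7 of the 8 genes and in 32.4% of all windows, and the core ACGTG, which lies inside every E-box, was in 4 of the 8 and in 19.6%. Slc2a6 carried GCGTG 4 times. CCAAT boxes (the letters CCAAT, both strands), found in 37.4% of all windows, were in all 8 genes, with 6 in Arrdc4. The glucocorticoid half-site AGAACA, in 19.0% of all windows, was in none of the 8 on either strand. Member counts are per gene, with a match in any of its windows, while the shares are per window, so they are not on one scale. A match is a run of letters, and whether a factor binds there was not measured.

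**Figure D1:**
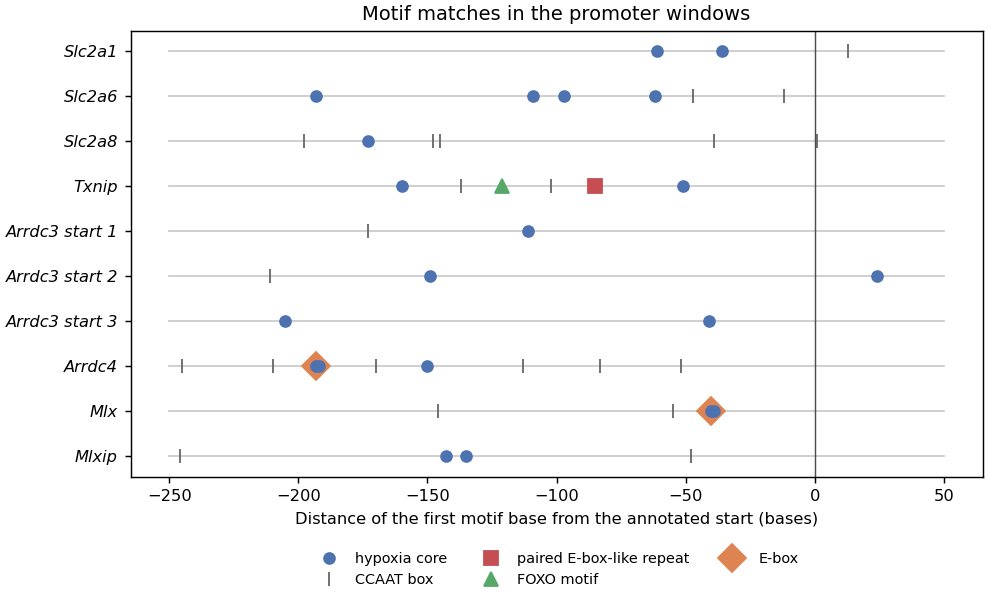
Positions of motif matches (horizontal axis, bases from the annotated start, window of 250 bases before to 50 after) in the 10 promoter windows of 8 genes; each mark is the first base of a match on either strand. The paired repeat and the FOXO motif appear on the Txnip line and on no other, at −85 and −121.

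With prednisolone, transcripts of 3 of the 9 genes were at least 2-fold lower, Slc2a3, Slc2a6 and Arrdc3, and 1, Txnip, was at least 2-fold higher. Slc2a1 and Arrdc4 were lower by less than 2-fold, Slc2a8 and Mlxip were slightly higher, and Mlx had no value under the main setting. Over all 11968 genes measured on both arrays, 6.62% were at least 2-fold lower and 5.77% at least 2-fold higher. The median of the 8 members with a value was −0.91 on the log2 scale, against 0.00 over all measured genes. All differences are prednisolone minus vehicle after each array was scaled by its 75th percentile, and ± is the scanner software's error, which does not cover the spread between cultures. Since the RNA was from whole cultures, less RNA per cell and fewer cells that express a gene cannot be told apart.

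The arrays were alike in quality, with 53.5% of spots well above background on each and no saturated spot. All 12 markers of CD8 T cells were well above background on both arrays, with a summed signal of 482077 intensity units with vehicle and 370411 with prednisolone. Markers of other cells were detected in part: on neither array did 5 of 8 B cell markers (Cd79a and Ms4a1 among them) or 5 of 10 myeloid markers (Lyz2 and Adgre1 among them) rise well above background. Others did on both arrays, such as Cd79b (1063 and 1623 units) for B cells, and Cst3 (5509 and 5300) and Itgam (3166 and 3459) for myeloid cells. The myeloid marker Cd68 was more than 2-fold lower with prednisolone (1045 and 217 units, −2.22). The summed signal was 1315 and 1662 for B cells, 10107 and 9304 for myeloid cells, 2690 and 3905 for NK and γδ T cells, 1423 and 1071 for neutrophils and 3018 and 1981 for CD4 T cells (vehicle, then prednisolone). For erythroid cells and platelets it was 428 and 1856; of the 8 such markers with a named probe, 5 (Alas2 and Pf4 among them) stayed near background on both arrays, while the globin gene Hba-a1 was higher with prednisolone (105 and 1568 units) and the erythropoietin receptor gene Epor was lower (160 and 19.9 units). The part of such cells in the differences below was not tested.

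**Figure D2:**
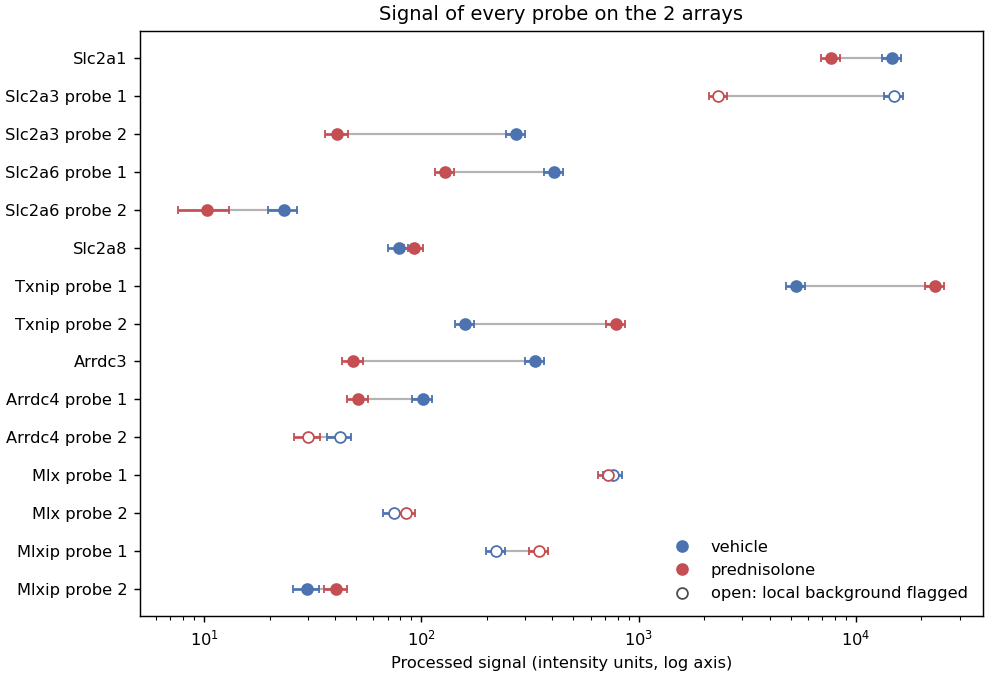
Processed signal of every probe of the 9 genes (horizontal log axis, intensity units) on the vehicle array (blue) and the prednisolone array (red), with the scanner software's error; open circles are probes whose local background was flagged on at least 1 array. Both Slc2a3 probes and the Arrdc3 probe lie to the left with prednisolone, and both Txnip probes to the right; the brightness of one probe cannot be set against that of another.

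Slc2a1 encodes GLUT1, the transporter most studied in activated T cells. Its 1 probe read 14641 intensity units with vehicle and 7632 with prednisolone. The prednisolone culture thus had the lower signal, 1.85-fold lower after scaling (−0.89 ± 0.20). This was short of the 2-fold line, and 8.16% of all measured genes had a lower difference.

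Slc2a3 encodes GLUT3, a transporter with high affinity for glucose that T cells share with neurons. Its bright probe read 14893 units with vehicle and 2328 with prednisolone (−2.63 ± 0.20). Its dim probe read 271 and 41.0 (−2.68 ± 0.22). The 2 probes are 54.9-fold apart in brightness on the vehicle array, and their differences are 0.05 ± 0.30 apart. The bright probe was left out of the gene's value because the software had flagged its local background on both arrays, not its own signal, so the value of 6.39-fold lower rests on the dim probe. Of all measured genes 0.368% had a lower difference. After another background correction (normexp) the dim probe gave −1.62 and the bright probe −2.57. This correction also adds an offset of 50 units to every signal, which by itself makes the difference of a dim probe smaller. The dim probe moved from 6.39-fold to 3.08-fold lower, and the bright one from 6.18-fold to 5.95-fold lower. How much of the move came from the offset was not tested.

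The other transporters, GLUT6 and GLUT8, lie mainly on membranes inside the cell. The brighter probe of Slc2a6 read 407 units with vehicle and 128 with prednisolone, 3.07-fold lower (−1.62 ± 0.21). The dimmer one read 23.2 with vehicle and 10.3 with prednisolone, where it was not well above background, and gives a bound of at least 1.90-fold lower. This bound does not allow for the software's error, 0.44 for that probe. After normexp the brighter probe was at −1.27 and the dimmer one at −0.17, so the bound depends on the background setting. Slc2a8 read 78.5 units with vehicle and 92.5 with prednisolone, a difference of 0.29 ± 0.21 that is close to the software's own error. The transporters thus differed unequally: Slc2a3 stood 1.79 ± 0.30 below Slc2a1, and 0.73 below it after normexp. A constant scaling factor per array cancels in such a gap. Between Slc2a8 and Slc2a3 the gap was 2.96 ± 0.31, or 1.77 after normexp. Both gaps use the dim Slc2a3 probe, at −1.62 after normexp. The bright one, left out for its flag, was at −2.57, with Slc2a1 at −0.90 and Slc2a8 at 0.15. With the bright probe both gaps would be wider after normexp.

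Txnip was the 1 member at least 2-fold higher. Its bright probe read 5276 units with vehicle and 23160 with prednisolone, 4.54-fold higher (2.18 ± 0.20). Its dim probe read 159 and 783, 5.10-fold higher (2.35 ± 0.21). Both probes were higher by more than 4-fold, and the mean of both was 2.27 ± 0.14. Of all measured genes 0.694% had a higher difference. After normexp it was 2.07.

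Arrdc3 and Arrdc4, the other α-arrestin genes among the members, differed the other way. ARRDC3 is known as an adaptor that takes β-adrenergic receptors and other membrane proteins to ubiquitin ligases. The Arrdc3 probe read 335 units with vehicle and 48.4 with prednisolone, 6.68-fold lower (−2.74 ± 0.22). This is within the software's error of the difference of Slc2a3, and the order of these 2 genes turned with normexp when spots with a flagged background were kept (−1.80 for Arrdc3 and −2.10 for Slc2a3). Of all measured genes 0.343% had a lower difference than Arrdc3. Normexp with its offset of 50 units gave −1.80, or 3.49-fold lower, so the size depends on this setting. The direction stayed the same.

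ARRDC4, like TXNIP, is known to reduce glucose uptake, and its gene is a MondoA target. The probe for its transcript NM_025549 read 101 units with vehicle and 51.2 with prednisolone, 1.91-fold lower (−0.93 ± 0.22). The probe for NM_001042592, whose local background was flagged on both arrays, read 42.1 and 30.0 (−0.44 ± 0.27). Both lay below 0, and their differences are 0.49 ± 0.34 apart. The used probe gave −0.46 after normexp, so a 2-fold difference was not reached under any of the 12 alternatives that gave Arrdc4 a value. Txnip stood 3.20 ± 0.26 above Arrdc4 (2.53 after normexp) and 5.01 ± 0.26 above Arrdc3 (3.88 after normexp).

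The transcription factor genes were less than 2-fold apart on every probe. Both Mlx probes had a flagged local background and were not used: the bright one read 764 units with vehicle and 722 with prednisolone (−0.03 ± 0.20), and the dim one 74.8 and 84.9 (0.23 ± 0.22). Their mean was 0.10. For Mlxip, the probe for NM_133917 read 221 and 346 units (0.70 ± 0.21) with a background flag on the prednisolone array, and the used probe for NM_177582 read 29.7 and 40.6 (0.50 ± 0.27). Both Mlxip probes were higher by less than 2-fold. None of the members had its own spot signal flagged on either array.

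**Figure D3:**
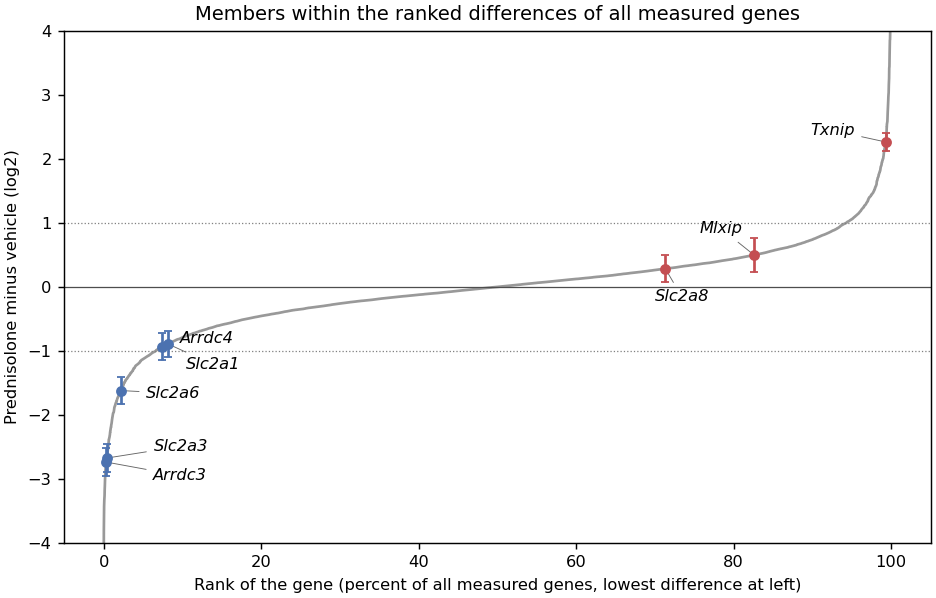
Differences of all 11968 measured genes in rank order (grey line; vertical axis, log2, shown from −4 to 4; horizontal axis, percent of genes) with the 8 members that have a value (points, ± software error); dotted lines mark 2-fold. Arrdc3, Slc2a3 and Slc2a6 lie below the lower line, Txnip lies above the upper one, and Slc2a1 and Arrdc4 lie just inside.

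Of 15 other hexose transporter genes, 4 were measured on both arrays and none was 2-fold apart, with a median of −0.11. Slc50a1, the gene of SWEET1, was the farthest from 0 at −0.36 ± 0.20. Slc5a1, the gene of the sodium-coupled transporter SGLT1, read 49.4 units with vehicle and 11.5 with prednisolone, where it was not well above background, and was at least 4.06-fold lower. The insulin-responsive transporter gene Slc2a4 read 7.56 and 2.89 units, below the lowest signals called above background, as did Slc2a2 and Slc2a5.

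Among 11 genes that trap glucose as glucose 6-phosphate or handle that product, the sugar to which MondoA responds, 10 were measured, 3 were at least 2-fold lower and 1 was higher, with a median of −0.50. Hk2, the gene of hexokinase 2, read 2846 units with vehicle and 1281 with prednisolone (−1.10 ± 0.20, and −0.86 when the arrays were scaled on the spike-in controls). The hexokinase gene Hk3 read 172 and 62.5 (−1.41 ± 0.21, and −0.85 after normexp). Adpgk, which encodes a kinase that phosphorylates glucose with ADP, read 316 and 1011 units and was 3.31-fold higher. Hk1 was −0.04 ± 0.21. G6pdx, the gene of glucose 6-phosphate dehydrogenase, was 0.77 ± 0.20, and 1.01, past 2-fold, under spike-in scaling. The direction thus differed among the kinases of this step.

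Of the arrestin relatives 7 of 8 were measured and 1 was at least 2-fold lower: Arrb1, the gene of β-arrestin 1, read 9794 and 2706 units (−1.81 ± 0.20). Its paralogue Arrb2 was 0.38, and the α-arrestin genes Arrdc1 and Arrdc2 were 0.16 ± 0.20 and −0.28 ± 0.14. Large differences were thus seen for some members of the arrestin superfamily and not for others. All 9 HECT ubiquitin ligases and adaptors that bind α-arrestins were measured, and 2 were at least 2-fold lower. These were Nedd4 (1368 and 547 units, −1.27 ± 0.20) and Nedd4l (3831 and 1636 units, −1.18 ± 0.20, which was −0.94 under spike-in scaling). Itch, whose product is known to ubiquitinate TXNIP, was −0.22 ± 0.17.

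In the MYC, MAX and MLX network 9 of 10 genes were measured and 1 was 2-fold apart. Mxi1, which encodes a partner of MAX that opposes MYC, read 4254 and 1126 units, 3.65-fold lower (−1.87 ± 0.20). Mlxipl, the gene of the MondoA paralogue ChREBP, was 0.01, Max was 0.51 ± 0.14 and Myc was 0.81 ± 0.14 (1.05, past 2-fold, under spike-in scaling). In the thioredoxin system 11 of 12 genes were measured, with a median of 0.18, and the peroxiredoxin gene Prdx5 was the 1 that was 2-fold apart (10251 and 4351 units, −1.19 ± 0.20, which was −0.95 under spike-in scaling). The peroxiredoxin gene Prdx4 was 0.86 ± 0.20, and 1.10, past 2-fold, under that scaling, where it was the 1 gene of the list 2-fold apart. Txn1, the thioredoxin that TXNIP binds, has 1 spot, which was flagged. It read 28765 and 27797 units, with a difference of 0.00 when spots with a flagged background were kept. Txnrd1, the gene of thioredoxin reductase, was 0.64 ± 0.14.

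None of 16 measured genes of transporter trafficking was 2-fold apart, with a median of 0.02. Tbc1d5, which acts on the retromer that recycles GLUT1, was the farthest from 0 (−0.58 ± 0.16) and its probes disagreed, at −1.12 and −0.04. Among kinases that set glucose uptake 8 of 10 were measured, with a median of −0.05; Akt1 was 0.74 ± 0.15 and Akt2 was −0.05. Sgk1, named after its value was seen, has a glucocorticoid-induced kinase as its product. Its 1 spot had a flagged background and read 492 and 5746 units, a difference of 3.60 when kept. Among transcription factors known to act on these genes 14 of 15 were measured, with a median of 0.07, and Klf9 was the 1 that was 2-fold apart, higher at 226 and 2044 units (3.23 ± 0.20). Hif1a was 0.08 ± 0.20, and Foxo1 and Foxo3 were 0.21 and −0.54 ± 0.20.

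**Figure D4:**
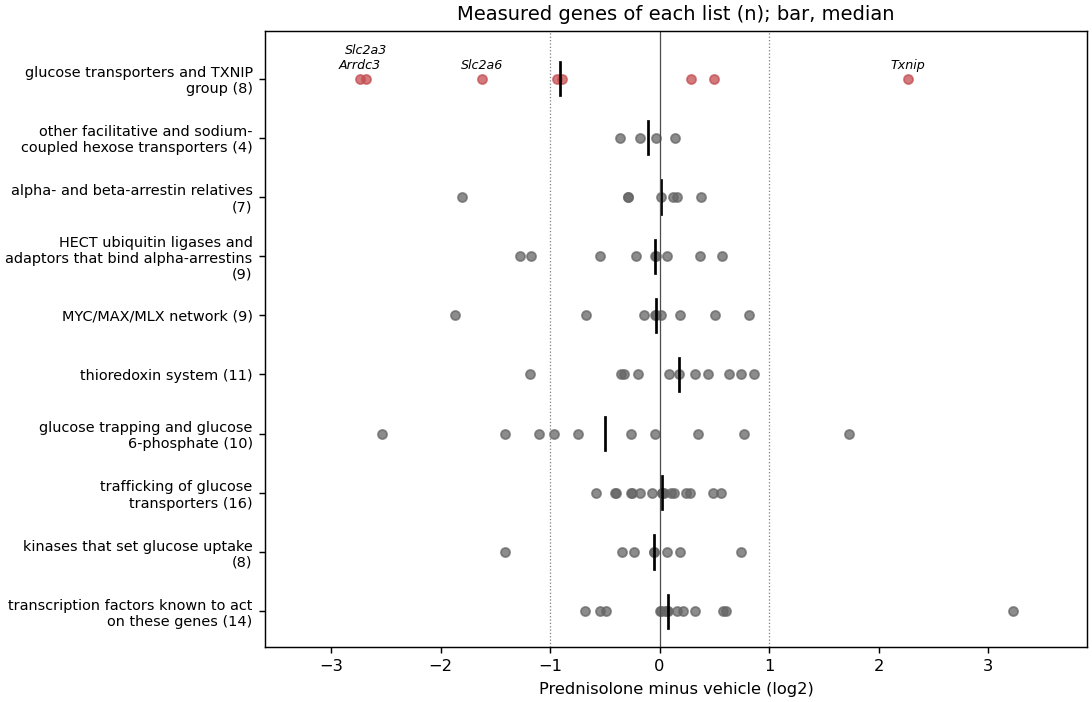
Log2 difference, prednisolone minus vehicle, of every measured gene of the 8 members with a value (red) and of 9 other lists (grey), with the list's median as a bar and members at least 2-fold apart named; dotted lines mark 2-fold. Red points spread from −2.74 (Arrdc3) to 2.27 (Txnip), while none of the 16 trafficking genes passes a dotted line.

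**Figure D5:**
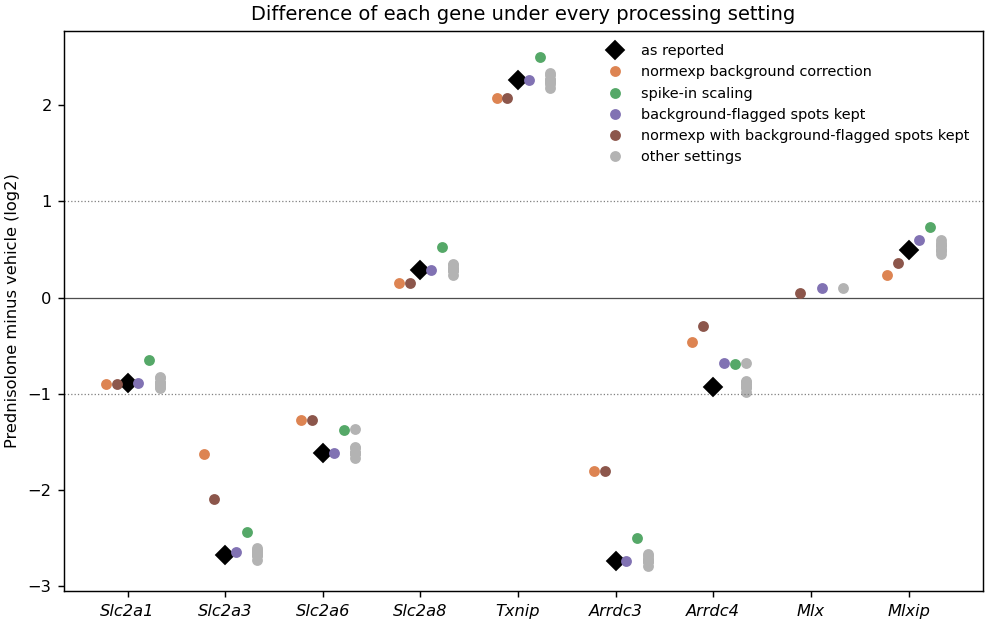
Difference of each of the 9 genes (vertical axis, log2) as reported (black) and under 13 other processing settings, 4 of them in colour; dotted lines mark 2-fold. Slc2a3, Slc2a6 and Arrdc3 stay below the lower line and Txnip above the upper one wherever a value could be had, and normexp moves Slc2a3 and Arrdc3 most.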

How the data were processed

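Per the labels' protocols, 100 ng of RNA per sample was labelled with Cy3 and hybridized to a 1-colour array. Per the file headers, the intensity values the authors deposited come from Agilent Feature Extraction 12.0.3.1, background-subtracted and detrended within each array, with the software's error and other yes-or-no flags. A deposited value table is the same intensity times 1 constant per array (0.792 vehicle, 0.858 prednisolone; medians 16.2 and 16.4), and how these constants were chosen is unknown. The 75th percentiles were 400 and 387 intensity units. The lowest signals well above background were 12.9 and 11.8. Control spots and spots with any outlier flag (7.20% and 8.92%) were left out. A gene's value is the mean log2 difference of its probes well above background on both arrays. A gene seen on 1 array only has a bound against the lowest signal well above background on the other. Accessions were named through a RefSeq table of GRCm38.p6 (33767 of 56605 probes). The headers name the build mm9, and the only coordinates given here are those of the promoters, on GRCm38.p6. Promoter windows are RefSeq's. Normexp (limma 3.58.1, R 4.3.3, offset 50) used the median signals of spot and local background. Other steps used Python 3.11.15. The gene differences under the main setting were tested on simulated data made from the vehicle array. The bounds, the other settings and the motif search were not part of that test. The members, lists and motifs were chosen with earlier results of these data known. All 9 members are named, and in each list the genes at least 2-fold apart, or else the one farthest from 0, except that some are not reported here; other genes were named after their values were seen.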

Additional observations from a re-analysis of the deposited data

How the results depend on the processing

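Across 13 alternative settings, no member with a value changed direction. Of these settings, 2 (those that keep spots with only a flagged background) were chosen after seeing the data. Of 99 values, 79 stayed within the software's error and 20 moved beyond it. For a gene with 1 used probe, taking the brightest or the median of its probes could not change the value. For Txnip, with 2 used probes, the median is the mean. None of the members had its own signal flagged, so keeping all flagged spots and keeping background-flagged spots gave the same values. For a gene with 1 probe on the array, neither of these could change the value. Part of the 79 was thus fixed in advance. The members at least 2-fold lower numbered 3 in each setting except that with a signal of at least 100 on both arrays, which left 1, because Slc2a3 and Arrdc3 then have no value. Txnip ranged from 2.07 to 2.51, Slc2a3 from −2.73 to −1.62, Slc2a6 from −1.67 to −1.27, Arrdc3 from −2.79 to −1.80, Slc2a1 from −0.94 to −0.65 and Arrdc4 from −0.98 to −0.29. Spike-in scaling on 8 probes added 0.24 to every difference, and higher genes then made up 70.5% of all genes 2-fold apart, against 46.6%. Normexp with its offset of 50 units reduced the genes at least 2-fold higher from 690 to 385 and lower from 792 to 410. No filter on dim probes gave 1460 and 1701, and a signal of at least 100 gave 445 and 446. Spike-in scaling gave 1151 and 482. With 1 array per treatment no sample could be left out. No paired analysis was possible because each treatment has 1 sample. The median SD between spots of 1 probe was 0.03, for 300 probes printed 10 times, which leaves out labelling, hybridization and culture.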
